A study of Mus musculus with 249 samples.

Results

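Prkaa2 and the other subunits of AMP-activated protein kinase (AMP kinase) were followed across the brains of an F2 mouse cross. The members were the probes that name Prkaa2, Prkaa1, Prkab1, Prkab2, Prkag1 or Prkag2 as their only gene, and 3 of these 6 genes had such a probe, 1 each, among the 11588 genes of the array with a single name. These were Prkaa2, Prkag1 and a probe named PRKAA1 whose record is the human gene, so that it is called the PRKAA1 probe or PRKAA1 below. How well it reads the mouse transcript was not tested, and mouse Prkaa1 itself has 0 probes with a mouse record. Prkab1, Prkab2 and Prkag2, and Prkag3, which was looked up as well, are not analysed here. Prkaa2 was selected on its log ratios in these same animals, which fall into discrete levels, so its own distribution and its likeness to other genes in r are given as a description.

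The animals were F2 mice of both sexes from a cross of C57BL/J6 and C3H/HeJ, every one of them on an ApoE null background. All ate a Western diet rich in fat between 8 and 24 weeks of age. RNA of 1 brain, labelled with Cy3, was hybridised per array against a common pool of the samples' RNA labelled with Cy5, and 249 arrays were given, from a cross for which the labels name 330 mice. The labels give no sex, genotype or batch by animal, so the animals formed 1 group without replicate arrays. Each value is the log10 of an animal's signal over that of the pool, in which 0.301 is a factor of 2. It carries no absolute level, so levels of different genes cannot be compared.

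The array of animal 144 was left out by the rule for the members. The lung gene Sftpc stood at 1.24 on it and between -1.65 and -1.12 on the other 248 arrays, and Snap25, a synaptic gene of neurons, stood at -1.99 against -0.560 to 0.174. The spread of the values of 1 array had a median SD of 0.0764 and reached 0.392 on that array. The number of arrays limits the precision.

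AMP kinase is a complex of a catalytic alpha, a scaffolding beta and a regulatory gamma subunit that senses the energy charge of the cell. AMP bound to the gamma subunit, together with phosphorylation of the alpha subunit by an upstream kinase such as LKB1 or CAMKK2, switches the complex on, and it then restrains anabolic pathways such as fatty acid and cholesterol synthesis. Prkaa2 and Prkaa1 encode alternative alpha subunits and Prkag1 encodes a gamma subunit, and all of them are expressed in brain.

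Prkaa2 lies on chromosome 4, and the next measured gene after it in RefSeq order, Plpp3, is read in the opposite direction. Their promoters are shown as those of 1 gene with discrete levels and its nearest measured neighbour that varied with it. The measured gene next before Prkaa2, C8a, had a Pearson r of 0.00151 with it. The 250 bases before each start are printed 5′ to 3′ from RefSeq (GRCm38.p6), at chr4:105109899-105110148 on the minus strand for Prkaa2 and chr4:105157097-105157346 on the plus strand for Plpp3, with matches to the GC box (GGGCGG on either strand) in capitals.
Prkaa2: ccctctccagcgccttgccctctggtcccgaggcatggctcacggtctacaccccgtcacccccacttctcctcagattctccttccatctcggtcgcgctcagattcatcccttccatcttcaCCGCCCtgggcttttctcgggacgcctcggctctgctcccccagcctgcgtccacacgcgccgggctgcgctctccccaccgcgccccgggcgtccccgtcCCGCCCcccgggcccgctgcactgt
Plpp3: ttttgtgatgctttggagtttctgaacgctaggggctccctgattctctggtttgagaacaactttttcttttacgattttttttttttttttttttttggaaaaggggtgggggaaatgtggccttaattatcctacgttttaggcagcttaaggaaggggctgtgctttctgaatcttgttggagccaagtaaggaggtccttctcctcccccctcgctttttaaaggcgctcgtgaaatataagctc
The Prkaa2 window held 2 GC boxes, 24 CG dinucleotides and 70.0% G and C. The Plpp3 window held 0 GC boxes, 6 CG dinucleotides and 42.4% G and C, against medians of 6 and 52.4% over 32851 RefSeq promoters. A GC box occurred in 32.7% of those promoters. TATAAA (12.4% of promoters), CCAAT (33.8%) and CACGTG (6.02%), searched on both strands, matched neither window. C3H/HeJ sequence was not used here, and a link of these letters to the levels was not tested.

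The values of Prkaa2 across the 248 brains were described with 3 levels, a number set in advance. Apart from 1 normal, other numbers of components were not fitted, so the count of levels was not tested. Whether 1 locus sets the levels was not tested either. A fit of 3 normal components with 1 variance and the weights of 25%, 50% and 25% that 1 autosomal locus gives in an F2 cross had means of -0.467, 0.00276 and 0.196 and a within-level SD of 0.0805. By their most likely component 66 animals were low (26.6%), 125 middle (50.4%) and 57 high (23.0%). With free weights the components took 26.8%, 49.2% and 24.0%. Brain RNA is a bulk sample, so fewer cells that express a gene and less RNA per cell cannot be told apart. The levels are those of the signal of 1 probe, and whether it binds the RNA of both strains alike was not tested.

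**Figure D1:**
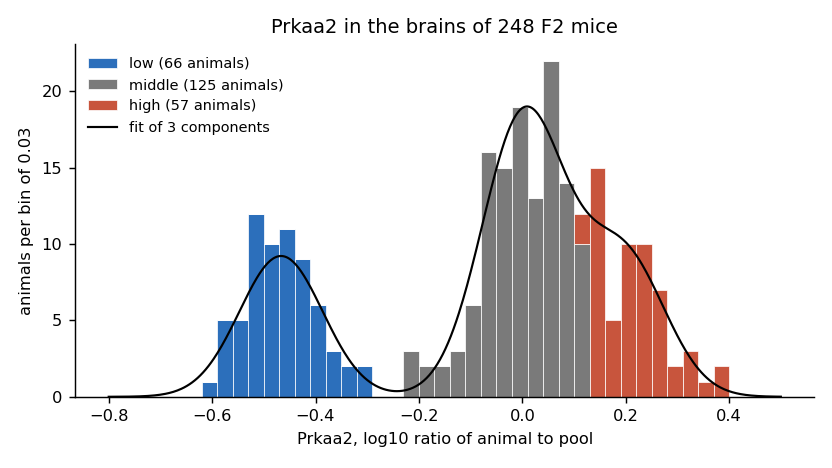
Histogram of the Prkaa2 log10 ratio of animal to pool in 248 brains (animals per bin of 0.03), coloured by the most likely of 3 levels, with the fitted sum of the components as a line. The 66 low animals stand apart, while the 125 middle and 57 high animals meet near 0.12.

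The low level was separate and the upper levels ran into each other. The lowest, median and highest values of Prkaa2 were -0.610, -0.471 and -0.291 in the low animals, -0.215, 0.00700 and 0.119 in the middle animals and 0.124, 0.203 and 0.390 in the high animals. No animal lay between -0.291 and -0.215, and the highest middle and the lowest high animal, at 0.119 and 0.124, lay closer together. Both gaps were smaller than the within-level SD of 0.0805. The component means of low and middle lay 5.83 SD apart and those of middle and high 2.39 SD. Of 64 animals placed with a probability under 90%, 2 lay between low and middle and 62 between middle and high.

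The levels were spaced more evenly on the linear than on the log scale. The component means correspond to 0.341, 1.01 and 1.57 times the pool, steps of 0.665 and 0.562 on the linear scale against 0.469 and 0.193 on the log10 scale. The middle mean was 2.95-fold above the low one, the high mean 1.56-fold above the middle one and 4.59-fold above the low one. The SD of Prkaa2 over animals was 0.262, at percentile 99.7 of all genes, whose median SD was 0.0547. The animals at the 5th and the 95th percentile of Prkaa2 differed by 6.05-fold.

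Neither of the other probes met the rule for 3 levels given below. PRKAA1 had a lowest, median and highest value of -0.253, 0.0162 and 0.109 and an SD of 0.0457 (percentile 34.4), and Prkag1 had -0.270, 0.0138 and 0.0994 and an SD of 0.0522 (percentile 46.1). Both distributions were a narrow body with a few low animals, with 4 animals below -0.1 for PRKAA1 and 11 for Prkag1. The same span was 1.39-fold for each. A gene was said to have 3 levels where the 3 components beat 1 normal by over 10 in BIC, the outer means lay at least 2 SD apart and the excess kurtosis was under 0, which 1.25% of all genes met. Prkaa2 (gain in BIC 150.2, rank 36 of 11588 by gain in likelihood) met it, and PRKAA1 (-9.61) and Prkag1 (-0.807) did not. With free weights PRKAA1 gained 2.36 through a component of 1 animal, and Prkag1 gained 53.7 through a low component of 11 animals (4.52% by weight) that lay 4.62 SD below the rest. The distribution of Prkag1 thus departs from 1 normal by its low tail, and its excess kurtosis of 5.52 keeps it outside the rule.

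A slope on Prkaa2 was not detected for Prkag1 or for the PRKAA1 probe, whose values may not be those of mouse Prkaa1. Each gene's log ratio was regressed on that of Prkaa2 with limma, with Benjamini-Hochberg adjustment over 11587 genes, so that a slope of 1 would mean that a gene moved as far as Prkaa2 on the log scale. The slope of PRKAA1 was -0.00430 ± 0.0111 (SE, n = 248 animals, limma adjusted p = 0.850) and that of Prkag1 -0.0109 ± 0.0127 (limma adjusted p = 0.633). Over the distance between the low and the high mean of Prkaa2, 0.662, the 95% interval of the fitted change ran from 0.961-fold to 1.03-fold for PRKAA1 and from 0.947-fold to 1.02-fold for Prkag1. At an adjusted p under 0.05 the slope was called for 7.83% of all genes, 4.47% with a positive and 3.36% with a negative slope, and for 0 of these 2 probes, whose unadjusted p were 0.699 and 0.390.

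The values by level of Prkaa2 showed the same overlap. PRKAA1 had a lowest, median and highest value of -0.130, 0.0120 and 0.109 in the animals low in Prkaa2, -0.115, 0.0202 and 0.106 in the middle animals and -0.253, 0.00687 and 0.0859 in the high animals. Prkag1 had -0.155, 0.0141 and 0.0927 in the low animals, -0.270, 0.0158 and 0.0994 in the middle animals and -0.196, 0.00557 and 0.0757 in the high animals. All 3 groups overlapped almost wholly for both genes. The means of PRKAA1 in low, middle and high animals were 0.0122, 0.0235 and 0.000831, and those of Prkag1 0.00963, 0.00846 and -0.00328. A single slope does not pick out a middle level above the other levels, and the levels were not tested as separate groups. The medians of high and low animals differed by 4.72-fold for Prkaa2, 1.01-fold for PRKAA1 and 1.02-fold for Prkag1.

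**Figure D2:**
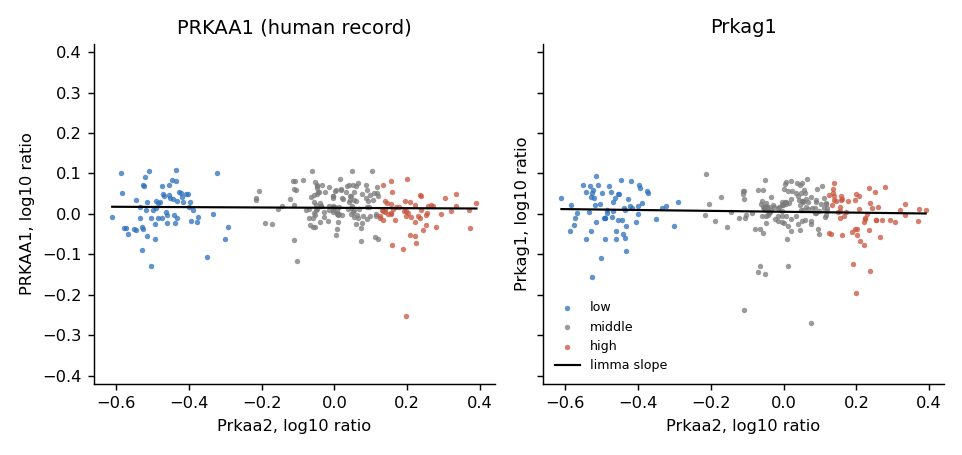
Log10 ratio of PRKAA1 (left) and Prkag1 (right) against that of Prkaa2, 1 point per brain (248), coloured by the level of Prkaa2, with the limma slope as a line. Both lines are nearly flat, with slopes of -0.00430 and -0.0109, and the few low points of Prkag1 occur at all 3 levels.

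The labels give no batch, so animals were also split by their numbers. In the 124 animals with lower and the 124 with higher numbers the slope of PRKAA1 was -0.00193 and -0.0146 and that of Prkag1 -0.0117 and -0.00303, with none called. In 4 blocks of 62 animals in number order the low level held between 12 and 21 animals, the middle level between 26 and 35 and the high level between 11 and 18. The median of PRKAA1 was -0.00379 in the first block and between 0.0213 and 0.0233 in the others.

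PRKAA1 and Prkag1 varied with each other, as most genes of the array varied with either. The slope of Prkag1 on PRKAA1 was 0.397 ± 0.0683 (SE, n = 248 animals, limma adjusted p = 1.01e-07). With PRKAA1 as the covariate 59.9% of all genes were called, 27.4% with a positive slope, with Prkag1 as the covariate 64.5% were called, 31.1% with a positive slope, and 19.1% of the genes had a larger test statistic than Prkag1, so this call is near the background. The slope was 0.204 (limma adjusted p = 0.00653) without the 12 arrays of largest SD, where 53.2% of genes were called, and 0.162 (limma adjusted p = 0.0289) with 5 principal components of the arrays in the model, where 41.4% were called. Of the 10 lowest animals 4 were among those 12 arrays for each gene, and 3 animals were among the 10 lowest of both genes; for Prkaa2 the number among the 12 arrays was 0. The part of array spread in this relation was not tested further.

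Most of the named genes whose values were closest to Prkaa2 lay on its own chromosome. By the absolute Pearson r over the 248 arrays, given as a description, the 10 closest were Cyp2j13 (-0.722), Plpp3 (0.719), Cap1 (-0.679), Cited4 (0.674), Bat2 (-0.633), Ror1 (0.604), Ermap (0.594), Fam151a (-0.565), Ccl27a (0.553) and Stx12 (-0.552), against a median of 0.0734 over all genes. Of these, 9 are on chromosome 4, which holds 617 of all 11588 genes. The Bat2 probe, which carries no current mouse record, was not placed. Ccl27a belongs to a chemokine family with near-identical copies, so its probe may read several of them. All values share the arrays and the pool. The 10 genes were picked by r in these same animals, so the p-values of their slopes below restate that choice. Only Plpp3 was also named by its place next to Prkaa2.

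Plpp3 encodes a membrane phosphatase of bioactive lipids such as lysophosphatidic acid. Its lowest, median and highest values were -0.302, -0.137 and 0.0870 in animals low in Prkaa2, -0.222, -0.0166 and 0.156 in middle animals and -0.223, 0.0644 and 0.240 in high animals. It rose with Prkaa2, with a slope of 0.290 ± 0.0178 (SE, n = 248 animals, limma adjusted p = 2.69e-37), while the groups overlapped. Plpp3 did not itself meet the rule for 3 levels (gain in BIC -3.29).

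Cyp2j13, a cytochrome P450 of a family that oxidises arachidonic acid, ran the other way. It had -0.0416, 0.169 and 0.487 in low animals, -0.393, 0.0195 and 0.200 in middle animals and -0.340, -0.171 and 0.305 in high animals, with a slope of -0.395 ± 0.0240 (SE, limma adjusted p = 1.20e-37). Cap1, which binds actin and adenylyl cyclase, had -0.174, 0.136 and 0.253 in low animals, -0.343, 0.00709 and 0.171 in middle animals and -0.349, -0.254 and 0.119 in high animals. Its slope was -0.408 ± 0.0280 (SE, limma adjusted p = 1.11e-31), and both of its probes fell with Prkaa2 (r of -0.666 and -0.661). The probes differed in size, with medians of 0.0698 in low and -0.0491 in high animals on the first and 0.209 and -0.443 on the second. Their SDs were 0.0576 and 0.265, so the values of Cap1 mostly follow the second probe. Cited4, a partner of the coactivators CBP and p300, rose with a slope of 0.429 ± 0.0298 (SE, limma adjusted p = 3.78e-31). All of these groups overlapped, and the medians of high and low animals differed by 2.19-fold for Cyp2j13, 2.46-fold for Cap1 and 2.00-fold for Cited4.

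**Figure D3:**
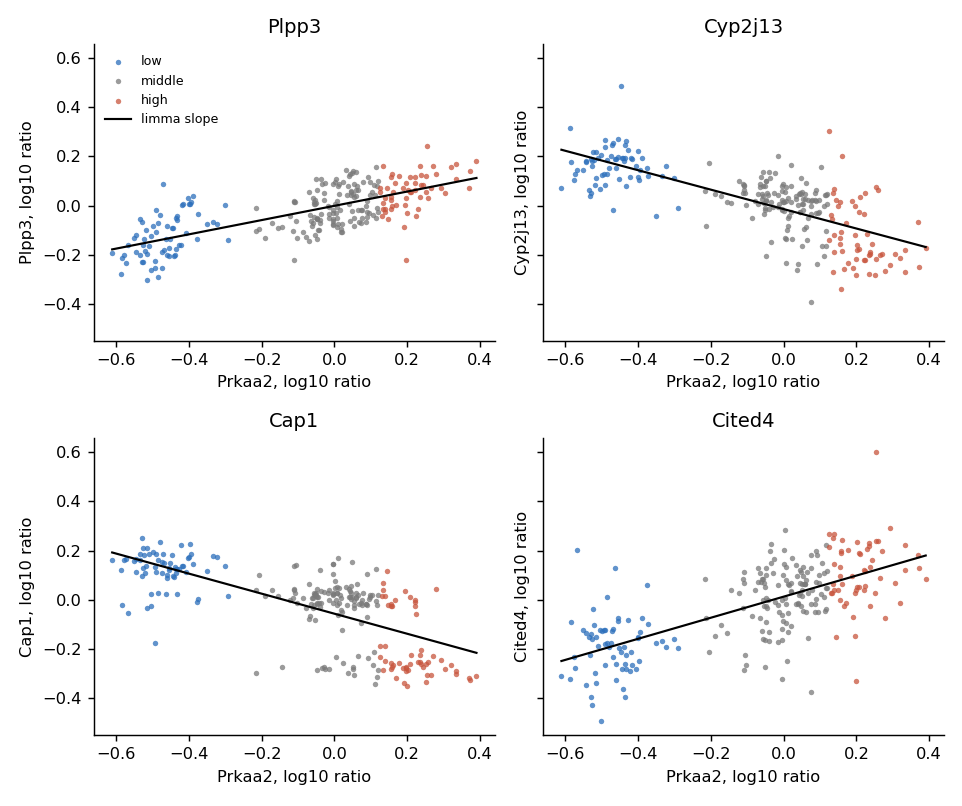
Log10 ratios of Plpp3, Cyp2j13, Cap1 and Cited4 against Prkaa2, 1 point per brain (248), coloured by the level of Prkaa2, with limma slopes as lines. Plpp3 and Cited4 rise (0.290 and 0.429), and Cyp2j13 and Cap1 fall (-0.395 and -0.408). The points of Cap1 lie in bands, with few animals between the lowest band and the others.

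Of the 10 closest genes Cap1, Cyp2j13 and Ccl27a met the rule for 3 levels themselves. Cap1 had 61, 121 and 66 animals at its low, middle and high level, and 188 of 248 animals (75.8%) held the level that mirrors their Prkaa2 level, 58 lay 1 level apart and 2 lay 2 levels apart. For Cyp2j13 183 animals (73.8%) mirrored Prkaa2, 63 lay 1 level apart and 2 lay 2 apart. For Ccl27a, which rose with Prkaa2, 154 animals (62.1%) were on the same level, 87 lay 1 apart and 7 lay 2 apart. These genes were picked by their r with Prkaa2 in the same animals, so matching levels follow in part from that choice. Unrelated genes with levels of these sizes would also match in some animals, and that share was not computed. The percentages are therefore a description only. In RefSeq order Cyp2j13 was the 24th measured gene before Prkaa2, Cap1 the 101st after it and Ccl27a the 167th before it.

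Within the levels of Prkaa2, where the most likely level entered the model as a factor beside the log ratio, 7 of the 10 closest genes were called. They were picked by an r that already holds their variation within levels, so nothing is read from this count beside the 7.20% of all genes called there. The slope of Plpp3 was 0.508 ± 0.0627 (SE, limma adjusted p = 7.06e-11) and that of Cyp2j13 -0.367 ± 0.0852 (limma adjusted p = 0.00104). Ermap, Ccl27a and Stx12 were not called there. The middle and high levels overlap, so animals placed on the wrong one of these remain in this fit.

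Likeness to Prkaa2 was patchy even among its nearest neighbours. Of the 15 RefSeq genes before and the 15 after Prkaa2, 3 were measured. Plpp3 was called, whereas slopes of Dab1 and C8a were not detected. Dab1, the adaptor of reelin signalling, had a slope of 0.00334 ± 0.00580 (SE, limma adjusted p = 0.763) and C8a, a complement component, 0.000274 ± 0.0116 (limma adjusted p = 0.992). Dab1 had an SD of 0.0233, at percentile 1.23 of all genes, and C8a one of 0.0475, so the genes around Prkaa2 also differed in how much they varied at all.

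On chromosome 4 as a whole 146 of 616 genes were called (23.7%), 73 in each direction. On each of the other autosomes and X the share lay between 3.91% and 9.82%. By measured genes in order, 12 of the 25 nearest before Prkaa2 and 8 of the 25 nearest after it were called. Before Prkaa2 the share was 32.0% from the 26th to the 50th gene, 20.0% from the 51st to the 100th, 20.0% from the 101st to the 150th and 20.7% beyond. After it the share had no such order, with 2 of 25 genes from the 26th to the 50th, 38.0% from the 51st to the 100th, 18.0% from the 101st to the 150th, 28.0% from the 151st to the 200th and 20.1% beyond. Of 23 genes with an absolute r over 0.5, 20 were on chromosome 4, 1 on another chromosome and 2 were not placed. Of all 11587 genes tested, 616 were on chromosome 4. Prdm16, a transcription regulator gene that itself varies widely and lies 350 measured genes after Prkaa2, had a slope of 0.611 ± 0.108 (SE, limma adjusted p = 7.03e-06) and an r of 0.337.

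**Figure D4:**
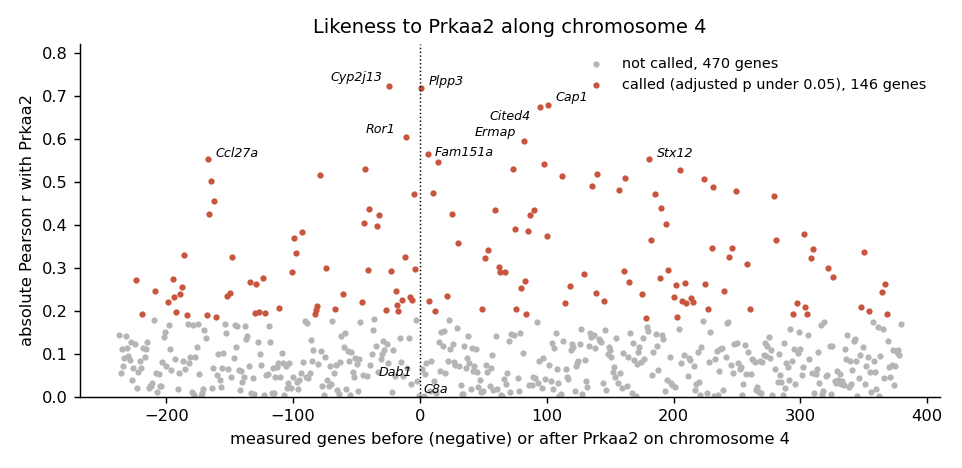
Absolute Pearson r with Prkaa2 of 616 genes of chromosome 4 by the number of measured genes before (negative) or after Prkaa2, with the 146 called genes in red. The values of Cyp2j13 (0.722) and Plpp3 (0.719), the highest shown, lie within 24 genes of Prkaa2, among genes near 0 such as C8a and Dab1.

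Probes of 1 gene could disagree. The gene Ybx1 on chromosome 4, a cold shock domain protein chosen here after its values were seen, had 4 probes with r of 0.756, -0.174, 0.249 and -0.573 against Prkaa2, and their mean had 0.0281. One Hivep3 probe had -0.694 and the other -0.124. Prkaa2 itself rests on 1 probe, so no second probe of the gene was compared. Among probes without a gene name 12 had an absolute r over 0.5, the closest 0.907 and 0.798, and they are not named here.

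Of 81 listed genes of the AMP kinase pathway 59 were measured and 3 (5.08%, against 7.83% of all genes) were called, all 3 with a positive slope, and their median slope was -0.00606 against -0.00147 for all genes. An unadjusted p under 0.05 was found for 27.1% of the pathway genes and 23.3% of all genes. Among upstream kinases and their partners, a list that also holds phosphatase genes such as Ppm1f and Ppp2ca, 2 of 12 were called. Of the 12, 7 (58.3%) had an unadjusted p under 0.05, 3 with a positive and 4 with a negative slope (Map3k7, Sesn1, Ppm1f and Ppp2ca). Cab39, the scaffold that holds LKB1 active, had a lowest, median and highest value of -0.255, -0.0210 and 0.166 over all animals and medians of -0.0416, -0.0287 and 0.00915 at the low, middle and high level of Prkaa2. Its slope was 0.0809 ± 0.0189 (SE, n = 248 animals, limma adjusted p = 0.00170). Within levels the slope was 0.438 (limma adjusted p = 2.39e-08). In the 124 animals with higher numbers it was 0.0657 and not called (limma adjusted p = 0.341).

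Sesn2, a stress-induced sestrin that lies on chromosome 4, had values from -0.235 through a median of -0.0414 to 0.232 and a slope of 0.0713 ± 0.0184 (SE, limma adjusted p = 0.00539). Its medians at the low, middle and high level were -0.0500, -0.0473 and -0.00259. The high median thus lay above the others by less than the SD of Sesn2, 0.0783. Within levels of Prkaa2 the slope of Sesn2 was 0.313 (limma adjusted p = 0.000128). With 5 principal components as covariates the slope of Sesn2 was 0.0372 and no longer called (limma adjusted p = 0.134), nor was it in the animals with higher numbers (0.0653, limma adjusted p = 0.230).

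Among substrates and effectors 1 of 30 was called. Foxo3, a transcription factor of stress and starvation responses, had a slope of 0.0706 ± 0.0219 (SE, limma adjusted p = 0.0262). Without the 12 arrays of largest SD its adjusted p in limma was 0.0542, with 5 principal components 0.162, within levels 0.964 and in the animals with lower and higher numbers 0.177 and 0.359. Tfam, the mitochondrial transcription factor, had the next smallest p in that list (slope -0.0454, limma adjusted p = 0.0891). Of the AMP kinase related kinases 0 of 11 were called, with Mark2, a microtubule affinity regulating kinase, closest (95% interval of the slope 0.0158 to 0.0841, limma adjusted p = 0.0534), and 3 had an unadjusted p under 0.05. Of the adenine nucleotide enzymes 0 of 6 were called, with the adenylate kinase Ak4 closest (0.0239, limma adjusted p = 0.166), the 1 with an unadjusted p under 0.05.

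**Figure D5:**
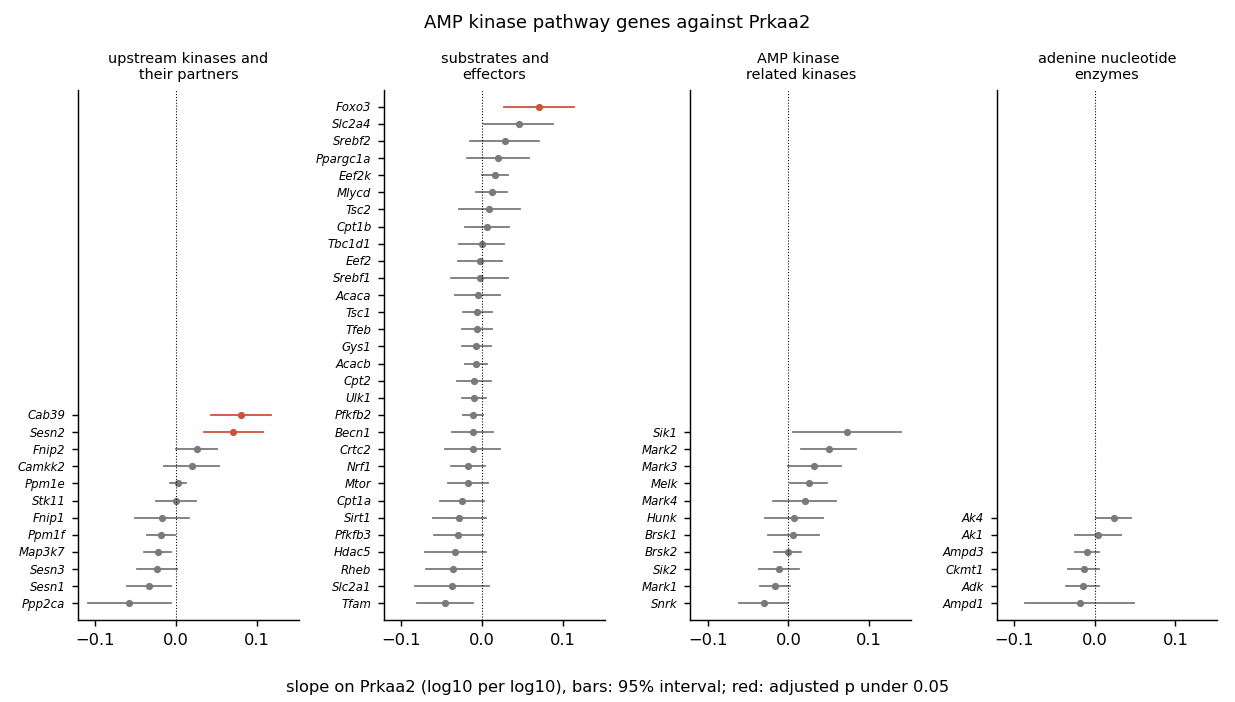
Slopes on Prkaa2 (log10 per log10) of the 59 measured pathway genes in 4 lists, with 95% intervals as bars and called genes in red. Cab39 and Sesn2 among the upstream kinases and partners and Foxo3 among the effectors are called, and 13 uncalled genes, Mark2 and Tfam among them, have intervals that leave out 0.

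Of the listed markers of brain cell types, brain regions and other tissues 84 were measured and 8 were called (9.52%, against 7.83% of all genes). The microglial complement genes C1qb (slope 0.128) and C1qc (0.230) rose with Prkaa2 and lie on chromosome 4. A slope was not detected for C1qa, of the same list and chromosome (0.000704, limma adjusted p = 0.977), nor for Csf1r (0.0117, limma adjusted p = 0.702). The interneuron genes Gad2 (0.103) and Sst (0.0775), the astrocyte transporter Slc1a3 (0.0970) and Aqp1 (0.0697), an aquaporin of choroid plexus, rose as well, and Nefm (-0.0947), a neurofilament subunit, and the astrocyte connexin Gja1 (-0.0417) fell. Members of 1 list went different ways: among the interneuron genes Gad1, like Gad2 an enzyme of GABA synthesis, had a slope of -0.0661 (95% interval -0.112 to -0.0198, limma adjusted p = 0.0604), Slc32a1 -0.0116 and Pvalb -0.0173, and the median of that list was 0.000129. With 5 principal components as covariates Nefm, Sst, Gja1 and Aqp1 were not called, and with animal 144 kept Nefm, Gja1 and Aqp1 were not. Of the 5 measured neuron markers 1 was called, of the 6 interneuron markers 2, of the 6 astrocyte markers 2, of the 6 microglial markers 2 and of the 5 choroid plexus markers 1, with 0 called among the 6 oligodendrocyte, 6 cerebellar and 5 pituitary markers in limma. An unadjusted p under 0.05 was found for 5 of the 6 astrocyte, 4 of the 6 microglial, 3 of the 5 neuron, 3 of the 6 interneuron and 1 of the 5 choroid plexus markers and for 0 of the oligodendrocyte, cerebellar and pituitary markers, 25.0% of all 84 markers against 23.3% of all genes. The part of these cell types in the pathway slopes was not tested.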

How the data were processed

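The authors deposited 1 log10 ratio per probe and array, animal (Cy3, per the labels) over pool (Cy5). How scanner signals were corrected and scaled is not given in the sources used here. Base 10 was read from the values: they ended at exactly -2 and 2, and the upper part of the Y-linked Eif2s3y had a median of 0.319, near the 0.301 that a pool of both sexes gives. By the same gene a positive value means more RNA in the animal. Array medians lay between -0.00627 and 0.0250.

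Probes with 1 symbol were averaged per gene if measured on at least 90% of arrays, with gaps (0.710% of all values) filled by the probe's mean: 13444 probes and 11588 genes, 10710 of them placed through gene identifiers of GRCm38.p6. The animal number of 1 sample differs between its labels; that of the source name was taken. Slopes were fitted with limma 3.58.1 in R 4.3.3 and tested on simulated data. Mixtures used Python 3.11.15. Named genes were all members, the 10 genes of largest absolute r, the measured genes among 15 RefSeq genes on each side (values for the 5 of largest r), called pathway genes, and 1 or 2 members of smallest p in lists with none called. Cell types were read from listed markers. Tfam, Prdm16, Ybx1, Hivep3 and the unnamed probes were added after their values were seen. The members and lists were chosen with earlier results of these data known.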

Additional observations from a re-analysis of the deposited data

How the results depend on the processing

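The slopes of PRKAA1 and Prkag1 on Prkaa2 stayed uncalled under all 14 alternatives, with adjusted p in limma from 0.604 to 0.958 and from 0.466 to 0.966. The sign turned only within levels of Prkaa2 (0.00714 for PRKAA1, 0.0298 for Prkag1). The slope of Prkag1 on PRKAA1 was called under all 6 alternatives, 1 of them chosen after seeing the data (arrays of largest SD left out), from 0.162 to 0.476, or 0.246 in normal scores. Against 907 called genes, the number was 1554 with normal scores of ranks, 584 with 5 principal components, 384 in the 124 animals with lower and 100 in the 124 with higher numbers; the cause was not tested, also of the difference between these equal parts. Without the 12 arrays of largest SD 581 of 1299 called slopes were positive, against 518 of 907. The slope of Dab1 was -0.00140 without those arrays. The slope of C8a was -0.0614 in normal scores, -0.00443 with 5 principal components, -0.00125 with blocks by animal number, -0.0416 within levels, -0.00934 in the lower part of animal numbers and -0.0134 without the 12 arrays. The 10 closest genes kept sign and call in 136 of 139 fits, the exceptions being Ermap, Ccl27a and Stx12 within levels. They were chosen by their r over arrays that most of these fits share, so little else could come out and the count is a description. Prkaa2 and the other subunits have 1 probe each, so fits by single probe were the same as the mean. No paired analysis was possible because the animals form 1 group. Intensities were not used here, so signal over background is unknown.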
